A study of Mus musculus with 40 samples.

Results

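Cell cycle and proliferation genes were followed in the gonadal white adipose tissue of male mice. The set is a list of 35 named genes, with 1 probe per gene (the brightest by mean over the 40 arrays), of 16593 named genes on the array. The array held a probe for 32 of them and the other 3 (Mki67, Ccnb1 and Aurkb) were not analysed here. Of the 32 genes, 23 exceeded background on 20 or more of the 40 arrays and were tested, and 9 were not. Across the array, 9797 genes passed the same filter.

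Dams of the C57BL/6J strain ate low fat (LF) or high fat (HF) food, with coconut oil as the main fat of both. Their sons received LF or HF food from weaning on. Of the 4 groups of 10 males, LL (LF dam, LF offspring) and LH (LF dam, HF offspring) had LF fed mothers, and HL (HF dam, LF offspring) and HH (HF dam, HF offspring) had HF fed mothers. Females began their diet at 3 weeks of age and kept it until their pups were weaned at day 21, and all offspring were killed at 9 weeks of age after a fast of 4 hours, per the study's methods. Each breeding cage held 1 male with 2 females, the 40 animals came from 12 cages, and every cage belonged to 1 maternal diet. Animals of the same cage were therefore not independent, and the labels do not name the dam. Each animal gave 1 array, and animals are numbered within a group only to name them.

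A dividing cell passes through an ordered programme. In G1 the pocket proteins hold E2F factors in check, at the start of S phase E2F targets such as the MCM helicase and the enzymes of nucleotide supply are made, and in G2 and mitosis a later wave supplies CDK1, the Aurora and Polo kinases, kinesins and the proteins of the spindle. Many genes of the later wave carry a short promoter element called CHR, through which the DREAM complex keeps them silent in resting cells. Mature adipocytes do not divide, and in fat the dividing cells are chiefly progenitors, endothelium and macrophages. In bulk tissue, fewer cells of a type and less RNA per cell cannot be told apart.

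Promoters of 29 of the 35 genes were matched in RefSeq (GRCm38.p6) and searched, on both strands and in a window from 250 bases before to 50 after the start, for the CHR (TTTGAA), the CCAAT box (CCAAT) and the E2F site (TTTCCCGC, TTTGGCGC or TTTCGCGC). The CHR letters were in 15 of the 29 (51.7%) beside 18.1% of 27025 promoters of the same length. They were in 14 of the 19 promoters outside the replication and nucleotide genes (73.7%) and in 1 of the 10 within them. The CCAAT letters were in 24 of 29 (82.8%, all promoters 37.9%). The E2F letters were in 5 of 29 (17.2%, all promoters 1.91%), of which 4 belonged to the replication and nucleotide genes. For the genes with several start sites in the table, as for all promoters, the first one listed was searched, and counting all listed starts left 15, 24 and 5 of the 29 genes with each motif (all genes 20.2%, 41.1% and 2.12%). A match describes letters and not a bound site.

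The 7 promoters shown belong to some of the genes that the results below turn on, and capitals mark the motif letters. The first 4 are from genes of mitosis and chromosome separation: Aurka, at chr2:172370521-172370820 on the minus strand, Cdc20, at chr4:118437294-118437593 on the minus strand, Prc1, at chr7:80294201-80294500 on the plus strand, and Top2a, at chr11:99024140-99024439 on the minus strand. The other 3 are from replication genes: Mcm5, at chr8:75109259-75109558 on the plus strand, Mcm6, at chr1:128359656-128359955 on the minus strand, and Pcna, at chr2:132253131-132253430 on the minus strand. All of the first 4 held a CHR and none of the other 3 did, whereas Mcm5 and Mcm6 held E2F letters, a pair of which overlapped in each, and Pcna held neither. The promoters of Tk1 and Birc5, not shown, held none of the motif letters, and no promoter was matched for Stmn1.
Aurka: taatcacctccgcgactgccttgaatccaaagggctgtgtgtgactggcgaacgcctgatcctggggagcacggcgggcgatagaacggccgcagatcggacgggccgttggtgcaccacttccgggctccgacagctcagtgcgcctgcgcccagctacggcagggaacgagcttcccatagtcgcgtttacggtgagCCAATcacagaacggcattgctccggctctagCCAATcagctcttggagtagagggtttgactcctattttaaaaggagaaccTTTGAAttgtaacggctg
Cdc20: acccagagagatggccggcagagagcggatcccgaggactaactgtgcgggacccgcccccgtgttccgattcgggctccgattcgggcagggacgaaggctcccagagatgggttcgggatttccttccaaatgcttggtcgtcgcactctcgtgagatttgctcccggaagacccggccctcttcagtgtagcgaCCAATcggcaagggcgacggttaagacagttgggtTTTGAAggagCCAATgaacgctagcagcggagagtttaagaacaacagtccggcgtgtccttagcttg
Prc1: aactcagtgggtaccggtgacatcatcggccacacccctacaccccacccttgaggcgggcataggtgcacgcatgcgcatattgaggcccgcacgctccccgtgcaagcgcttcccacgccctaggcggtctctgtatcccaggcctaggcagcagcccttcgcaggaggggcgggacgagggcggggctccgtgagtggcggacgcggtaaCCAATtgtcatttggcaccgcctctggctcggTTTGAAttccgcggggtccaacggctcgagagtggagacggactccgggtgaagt
Top2a: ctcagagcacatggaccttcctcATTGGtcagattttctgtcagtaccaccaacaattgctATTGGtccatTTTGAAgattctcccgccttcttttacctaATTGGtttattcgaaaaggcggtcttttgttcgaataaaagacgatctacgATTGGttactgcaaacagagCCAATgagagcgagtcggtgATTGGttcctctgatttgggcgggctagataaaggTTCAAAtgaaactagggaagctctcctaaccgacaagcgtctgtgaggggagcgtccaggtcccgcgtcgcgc
Mcm5: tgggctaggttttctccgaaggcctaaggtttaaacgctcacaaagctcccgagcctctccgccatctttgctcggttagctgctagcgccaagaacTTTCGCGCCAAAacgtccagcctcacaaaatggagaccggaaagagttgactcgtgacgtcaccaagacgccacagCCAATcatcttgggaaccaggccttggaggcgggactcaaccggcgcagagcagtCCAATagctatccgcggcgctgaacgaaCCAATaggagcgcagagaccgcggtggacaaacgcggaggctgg
Mcm6: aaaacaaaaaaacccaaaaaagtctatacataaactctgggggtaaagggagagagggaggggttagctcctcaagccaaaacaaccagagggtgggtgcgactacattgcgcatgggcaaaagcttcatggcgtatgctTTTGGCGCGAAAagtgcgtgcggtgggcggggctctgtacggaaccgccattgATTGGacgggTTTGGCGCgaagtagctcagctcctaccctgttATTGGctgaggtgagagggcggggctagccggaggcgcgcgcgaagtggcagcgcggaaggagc
Pcna: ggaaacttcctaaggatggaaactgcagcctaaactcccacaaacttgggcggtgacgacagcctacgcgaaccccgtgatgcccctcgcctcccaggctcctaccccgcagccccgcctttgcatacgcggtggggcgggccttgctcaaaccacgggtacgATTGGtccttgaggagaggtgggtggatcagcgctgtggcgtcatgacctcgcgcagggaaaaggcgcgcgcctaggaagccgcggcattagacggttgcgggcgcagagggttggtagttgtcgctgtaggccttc

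Before the groups are compared, some arrays stood apart. Adipoq, the adipocyte hormone that checks the tissue, lay between 11332 and 31669 units in all 40 animals. On 3 arrays transcripts of spermatids were bright: LL animal 4, HL animal 6 and HL animal 8 had geometric means of 4006, 1527 and 1056 units over 16 spermatid genes, all 16 above background, beside group medians of 99.7 in LL and 184 in HL. These arrays are called rich in spermatid transcripts, and results are given with and without them. The testis and epididymis lie beside the gonadal pad in male mice. By correlation with the other arrays, 5 arrays were low (LL animals 1 and 4, HL animals 2, 6 and 8), all from LF fed offspring. On these the adipocyte list of 12 genes lay between 918 and 1263 units, beside 2140 to 3807 on the other 35, and the list of epididymis and seminal vesicle between 609.8 and 3150, beside 76.9 to 569.8. Skeletal muscle transcripts were brightest in HH animal 10 (12610 units over 7 genes) and HH animal 3 (2050), beside a median of 142 in HH.

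Of the 9 genes on the array that were not tested, 5 were above background on no array: Ccna2 and Ccnb2, which encode cyclins of S phase and mitosis, Bub1, a spindle checkpoint kinase, Cenpe, a kinesin of the kinetochore, and Kif20a, a kinesin of cytokinesis. The other 4 were above background on 1 (Ube2c, the E2 enzyme of the anaphase ubiquitin ligase), 5 (Kif11, the kinesin that separates spindle poles), 9 (Tpx2, which activates Aurora A on the spindle) and 10 arrays (Kif2c, a kinesin that takes microtubules apart). Their highest values lay in the same few animals as those of the tested genes: Kif2c reached 198 units in LL animal 4, Tpx2 131 and Kif11 122 in HH animal 5, and Ube2c 91.3 in HL animal 8. These genes therefore gave no group comparison.

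Of the tested genes, 14 were above background on all 40 arrays and 9 on some of the arrays only. The brightest probes by median over the animals were those of Mcm4 (709 units), Cenpa (544) and Mcm6 (341), and the dimmest were those of Mcm7 (90.8), Bub1b (94) and Mcm3 (97.4). Probe brightness depends on the probe as well as on the transcript, so this order is not an order of abundance. Per animal, between 19 and 27 of the 32 genes were above background, with a median of 22 for LL, 22.5 for LH, 23 for HL and 21 for HH animals.

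**Figure D1:**
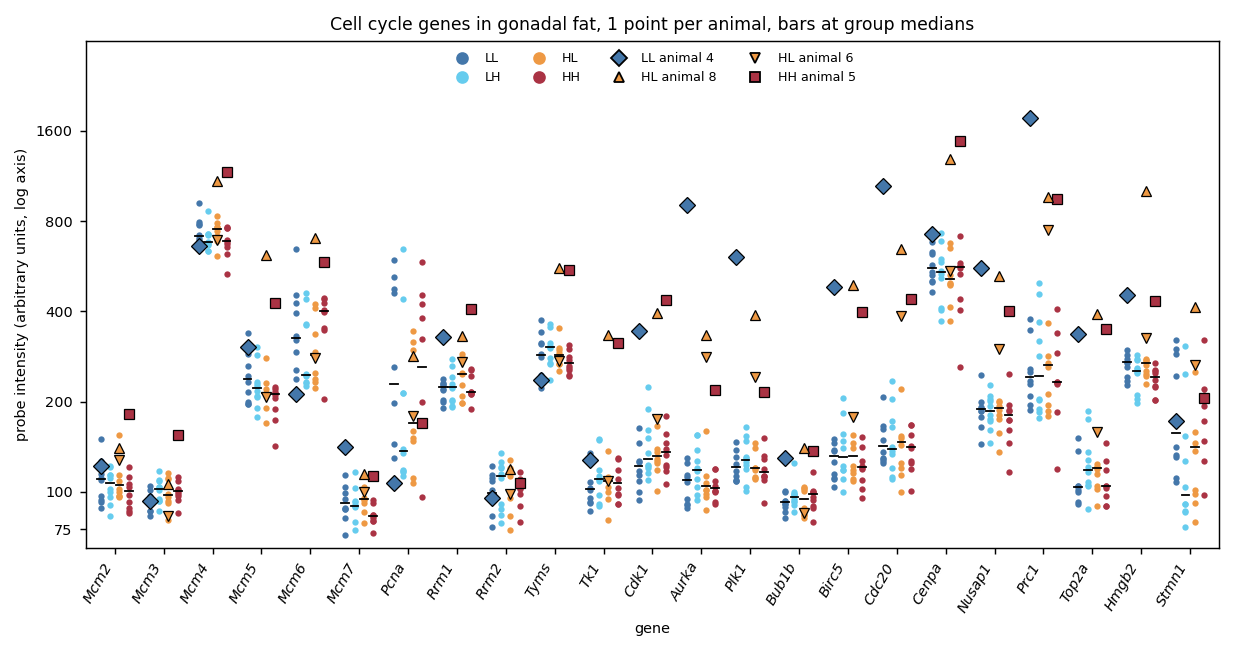
Probe intensity (arbitrary units, log axis) of the 23 tested cell cycle genes in each of 40 animals, coloured by group, with bars at group medians and larger symbols for 4 animals. The group medians lie close together for most genes, and LL animal 4, HL animal 8 and HH animal 5 sit far above the others for many of them, as for Prc1 at 1761, 966 and 949 units.

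The first pair of comparisons asked whether the diet of the dam left a mark on these genes. Among offspring fed LF after weaning (HL against LL), 0 of the 23 genes passed the test (limma, Benjamini-Hochberg adjusted p under 0.05 over all 14248 probes), where 0% of all probes passed, and 0 had an unadjusted p under 0.05, where 1.08% of all probes did. The median log2 difference over the genes was 0.04 and 17 of 23 lay above 0, beside a median of -0.01 over all probes. The largest differences by p were those of Rrm1, the large subunit of ribonucleotide reductase (log2 difference 0.13 ± 0.11 SE, p = 0.267), Mcm3, a helicase subunit (0.07 ± 0.07, p = 0.295), and Pcna, the sliding clamp of DNA polymerase (-0.34 ± 0.35, p = 0.338), each with an adjusted p of 1 in limma. Without the 3 arrays rich in spermatid transcripts the median was 0.00 and 12 of 23 genes lay above 0. HL animal 8 alone set the sign of the median, which was -0.06 with 5 of 23 genes above 0 when it was left out.

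For Rrm1 the LL animals ran from 190.1 to 329 units with a median of 224, and the HL animals from 197 to 329.9 with a median of 247. Pcna spread far more, from 107 to 592 units in LL with a median of 229.6 and from 107 to 345 in HL with a median of 169. For both genes the groups overlapped over most of their range.

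Among offspring fed HF after weaning (HH against LH), 0 of the 23 genes passed (0% of all probes did) and 2 had an unadjusted p under 0.05, where 12.5% of all probes did. The median was 0.03, with 15 of 23 above 0, beside -0.02 over all probes. The 2 genes were Mcm6, another helicase subunit, and Stmn1, a protein that destabilises microtubules and is abundant in dividing cells.

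Mcm6 lay between 225 and 460.4 units in LH, with a median of 245, and between 204 and 582 in HH, with a median of 402. HH was higher by 0.41 ± 0.17 on the log2 scale (1.32-fold, limma, p = 0.0253, adjusted p = 0.329), and 9 of 10 HH animals lay above the LH median. The groups overlapped, and the lowest of all 40 animals was HH animal 10. HH animal 10 also had the brightest skeletal muscle transcripts, while HH animal 3, the next brightest for them, had Mcm6 at 400.7 units. The 2 other Mcm6 probes that were above background on all 40 arrays correlated with the first by r = 0.36 and 0.31 and gave differences of 0.10 ± 0.16 (p = 0.539) and 0.03 ± 0.13 (p = 0.804).

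Stmn1 lay between 76.4 and 307 units in LH, with a median of 97.4, and between 97.2 and 320.0 in HH, with a median of 199.9. HH was higher by 0.58 ± 0.25 (1.49-fold, limma, p = 0.0298, adjusted p = 0.35), and again 9 of 10 animals lay above the LH median. In LH the probe was above background on 6 of 10 arrays. Pcna, next by p, had medians of 137 units in LH and 261 in HH (0.49 ± 0.36, p = 0.183, adjusted p = 0.56). LH and HH held no array over the limit for spermatid transcripts, but LH animal 5 came close (632 units, 15 of 16 genes above background). Without all arrays on which much of the spermatid list was above background, 6 HH and 4 LH animals were left, Mcm6 gave 0.42 ± 0.21 (p = 0.0665) and Stmn1 0.65 ± 0.32 (p = 0.0629), each with an adjusted p of 0.984 in limma, and the median of the genes was 0.17 with 20 of 23 above 0. Leaving out HH animal 5 left Mcm6 at 0.34 (p = 0.0531) and Stmn1 at 0.56 (p = 0.0449) and turned the median of the genes to -0.08, with 3 of 23 above 0, and leaving out LH animal 10 turned it to -0.0018 with 11 of 23 above 0. With cage as a random effect the p-values were 0.0456 for Mcm6 and 0.0597 for Stmn1.

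The second pair of comparisons asked whether the diet of the offspring itself mattered. Among sons of LF fed dams (LH against LL), 0 of 23 genes passed, where 31 probes (0.218% of all) did, and 0 had an unadjusted p under 0.05, where 12.8% of all probes did. The median was -0.07, with 7 of 23 above 0, beside 0.03 over all probes. Stmn1 came closest, with a median of 157 units in LL (range 108 to 321) and 97.4 in LH (log2 difference -0.56 ± 0.28, p = 0.0562, adjusted p = 0.401). Mcm3 (0.11 ± 0.06, p = 0.0719) and Hmgb2, a chromatin protein of dividing cells (-0.18 ± 0.11, p = 0.119), came next. Within the cages that held both diets (5 animals against 5, LL animal 4 among them, cage as a fixed effect) 0 genes passed and the median was -0.12. Without LL animal 4, the 1 array rich in spermatid transcripts in these groups, the median turned to 0.04 with 13 of 23 above 0.

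Among sons of HF fed dams (HH against HL), 0 of 23 genes passed, where 73 probes (0.512%) did, and 1 had an unadjusted p under 0.05, where 16.9% of all probes did. This was Mcm7, a helicase subunit, which lay between 78.6 and 115 units in HL (median 94.8) and between 72.9 and 113 in HH (median 83.2). The difference was -0.15 ± 0.07 (limma, p = 0.0458, adjusted p = 0.289), and 1 of 10 HH animals lay above the HL median. Its probe was above background on 8 of 10 arrays in HL and 3 of 10 in HH, so the values lay close to the floor of detection.

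The median over the genes in HH against HL was -0.09, with 7 of 23 above 0, beside 0.02 over all probes. Without the 2 HL arrays rich in spermatid transcripts it turned to 0.08, with 17 of 23 above 0, and Mcm7 stood at -0.11 (limma, p = 0.142). In that setting Mcm6 (0.41 ± 0.17, p = 0.0264) and Stmn1 (0.55 ± 0.22, p = 0.0243) had an unadjusted p under 0.05, where 12.2% of all probes did. Their adjusted p-values in limma were 0.339 and 0.331. HL animal 8 alone turned the median, to 0.01. Within the cages that held both diets (7 HH and 6 HL animals) 0 genes passed and the median was -0.24, with 3 of 23 above 0. These animals included HL animals 6 and 8, both rich in spermatid transcripts, and HH animal 5.

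**Figure D2:**
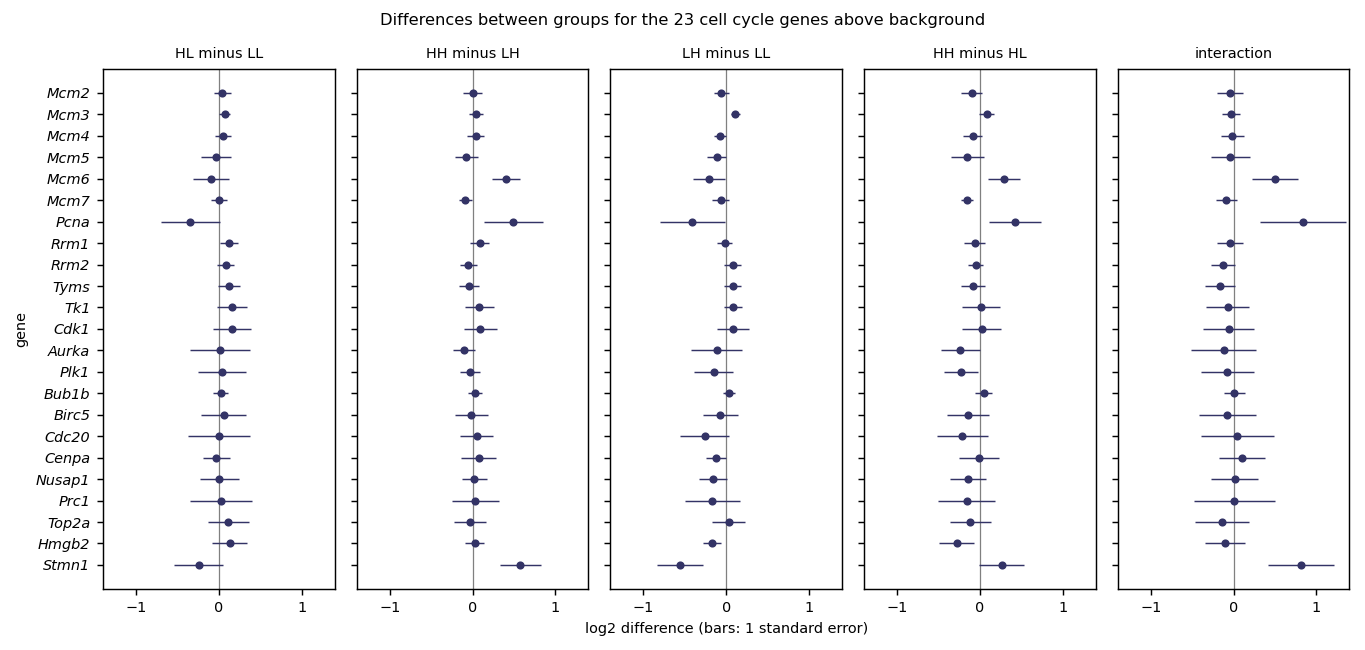
Log2 differences (points) with 1 standard error (bars) for the 23 tested genes in the 4 pairwise comparisons and the interaction. Between 17 and 21 of the 23 genes lie within 1 standard error of 0, and Mcm6, Pcna and Stmn1 stand to the right in HH minus LH, at 0.41, 0.49 and 0.58, and in the interaction.

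The interaction, which is the HH minus HL difference less the LH minus LL difference, asked whether the post-weaning diet acted differently by maternal diet. Here 0 of 23 genes passed (0% of all probes did) and 1 had an unadjusted p under 0.05, where 4.36% of all probes did. Stmn1 gave 0.82 ± 0.40 (p = 0.0464), Mcm6 0.50 ± 0.28 (p = 0.0822) and Pcna 0.84 ± 0.52 (p = 0.115), each with an adjusted p of 0.935 in limma. The median was -0.04, with 8 of 23 above 0, beside -0.02 over all probes. Without the 3 arrays rich in spermatid transcripts Stmn1 gave 1.11 ± 0.38 (limma, p = 0.0061, adjusted p = 0.564), where 8.6% of all probes had an unadjusted p under 0.05. When arrays were weighted by their quality, 3 of 23 genes passed in limma, with adjusted p-values of 0.0187 (Mcm6 and Stmn1) and 0.0334 (Pcna). In that setting 1905 of all 14248 probes passed as well. Without weights, the other Mcm6 probes above background on all 40 arrays gave 0.04 ± 0.21 (limma, p = 0.837) and 0.07 ± 0.16 (p = 0.68).

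Over the pairwise comparisons the standard errors of the 23 genes ran from 0.06 to 0.39. The wider cell cycle programme also gave no call. Of 96 further genes (G1 cyclins and kinases, CDK inhibitors, RB, E2F and DREAM factors, replication factors and other mitotic genes), 84 had a probe and 58 were tested. In each of the 5 comparisons 0 of the 58 passed, in either direction, and 1, 8, 7, 5 and 1 had an unadjusted p under 0.05 for HL against LL, HH against LH, LH against LL, HH against HL and the interaction, where 1.08%, 12.5%, 12.8%, 16.9% and 4.36% of all probes did. The smallest adjusted p was that of Cdkn2c, an inhibitor of the G1 kinases, named here after its value was seen, at -0.50 ± 0.12 in HH against LH (p = 0.000264, adjusted p = 0.0941). By median these genes lay between -0.06 and 0.02 over the comparisons.

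The spread of the mitotic genes lay between single animals and not between groups. Among the kinases, Aurka, which builds the spindle poles, was at most 129.8 units in 9 of 10 LL animals and 907 in LL animal 4, which is 8.42-fold the median of the other 9. Plk1, the Polo kinase of mitotic entry, reached 609 units there (5.18-fold). In LH, which held no array over the limit for spermatid transcripts, Aurka stayed between 93.6 and 155. Its highest LH value was that of LH animal 5 (154.6 units), whose spermatid list was 4th of the 40 animals. LH animal 4 stood level with it at 154.3 units, and its spermatid list was 36th, with 0 of 16 genes above background.

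Later mitotic genes were likewise high in LL animal 4. Cdc20, the activator of the anaphase ubiquitin ligase, stood at 1046 units beside at most 207 in the other 9 LL animals (7.71-fold their median), and Prc1, which bundles microtubules between the separating chromosomes, at 1761 beside at most 378 (7.51-fold). Genes of replication and nucleotide supply ranged from below to above the other animals: Tk1, thymidine kinase, was at 128 units (1.26-fold), Mcm2 at 122 (1.11-fold) and Pcna at 107 (0.409-fold), while Mcm7 at 141 (1.60-fold) was the highest of the 40 animals and Rrm1 at 329 (1.49-fold) was above the other 9. Of the mitotic genes, Cenpa (1.33-fold) and Bub1b, a spindle checkpoint kinase (1.42-fold), stood between Tk1 and Mcm7 by fold. Of the 23 genes, 10 were over 1.5-fold in this animal, beside 12.4% of all tested probes.

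The spermatid list was the highest of the 40 animals in LL animal 4, as was the list of spermatogonia and spermatocytes (227 units over 11 genes, 7 above background, group median 69.9). Among the markers, Prm1, which packs sperm DNA, stood at 37044 units, Ccna1, the cyclin of meiosis, at 588 (median of the 40 animals 62.7) and Ddx4, a germ cell helicase, at 254 (median 78), whereas Sycp3 of the meiotic chromosome axis was at 65.7, near its median of 58.9. The part of these transcripts in the levels of Aurka, Plk1, Cdc20 and Prc1 was not tested. HL animal 6, with the next highest spermatid list, showed the same genes to a lesser degree, with Prc1 at 747 units (2.88-fold), Aurka at 282 (2.78-fold) and Cdc20 at 385 (2.69-fold), while Tk1 stood at 109 (0.999-fold).

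HL animal 8 was high across both waves. It had the highest level of the 40 animals for 9 of 23 genes, whereas it was highest for 7.44% of all tested probes, and 17 of 23 were over 1.5-fold the median of the other 9 HL animals, beside 11.4% of all probes. Mcm5, a helicase subunit, stood at 618 units beside at most 279.8 in the other HL animals (2.90-fold), Tk1 at 332 beside at most 137 (3.06-fold) and Hmgb2 at 1012 beside at most 325. Top2a, the topoisomerase that untangles sister chromatids, stood at 392 (3.28-fold).

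This animal also carried intestinal transcripts. The intestine list had a geometric mean of 2542 units with 9 of 10 genes above background, beside a group median of 73.6, with Sis at 11937 and Vil1 at 7725 units, while Fabp2 stood at 55.5. Its adipocyte list was the lowest of the 40 animals (918 units, group median 2899). The crypts of the intestine are among the fastest renewing tissues of the body. The part of the intestinal and the spermatid transcripts in its cell cycle genes was not tested.

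HH animal 5 also stood high, with the spermatid and intestine lists low. It was the highest of the 40 for 6 of 23 genes, beside 6.57% of all probes, and 17 of 23 were over 1.5-fold the median of the other 9 HH animals, beside 5.24% of all probes. Cdk1, the kinase that drives mitosis, stood at 437 units beside at most 179 in the other HH animals (3.29-fold), Tk1 at 314 beside at most 129 (3.05-fold), Cenpa, the histone of the centromere, at 1487 beside at most 712 (2.67-fold) and Mcm4 at 1169 beside at most 763. Its spermatid list was the lowest of the 40 animals (73.6 units, 3 of 16 genes above background) and its intestine list stood at 70.2. Among germ cell markers, Ddx4 at 94.6 units was 4th of the 40 and Sycp3 at 72.9 was 2nd, and the list of spermatogonia and spermatocytes was 11th, at 74.5 units with 3 of 11 genes above background.

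In HH animal 5 the macrophage list (1544 units, 9 of 10 genes above background, group median 914) and the list of fibroblasts and adipocyte progenitors (1074, 11 of 11, group median 845) were the highest of the 40 animals. C1qa, a complement gene of macrophages, reached 1503 units (median of the 40 animals 706) and Col1a1, the fibrillar collagen of fibroblasts, 2309.9 (median 817), while Adgre1, another macrophage gene, at 1710 was 11th of the 40. Their part in the cell cycle genes was not tested. HH animal 5 and HL animal 8 came from the same breeding cage, whose 2 other animals were 28th and 39th of 40 by mean level of the 23 genes.

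**Figure D3:**
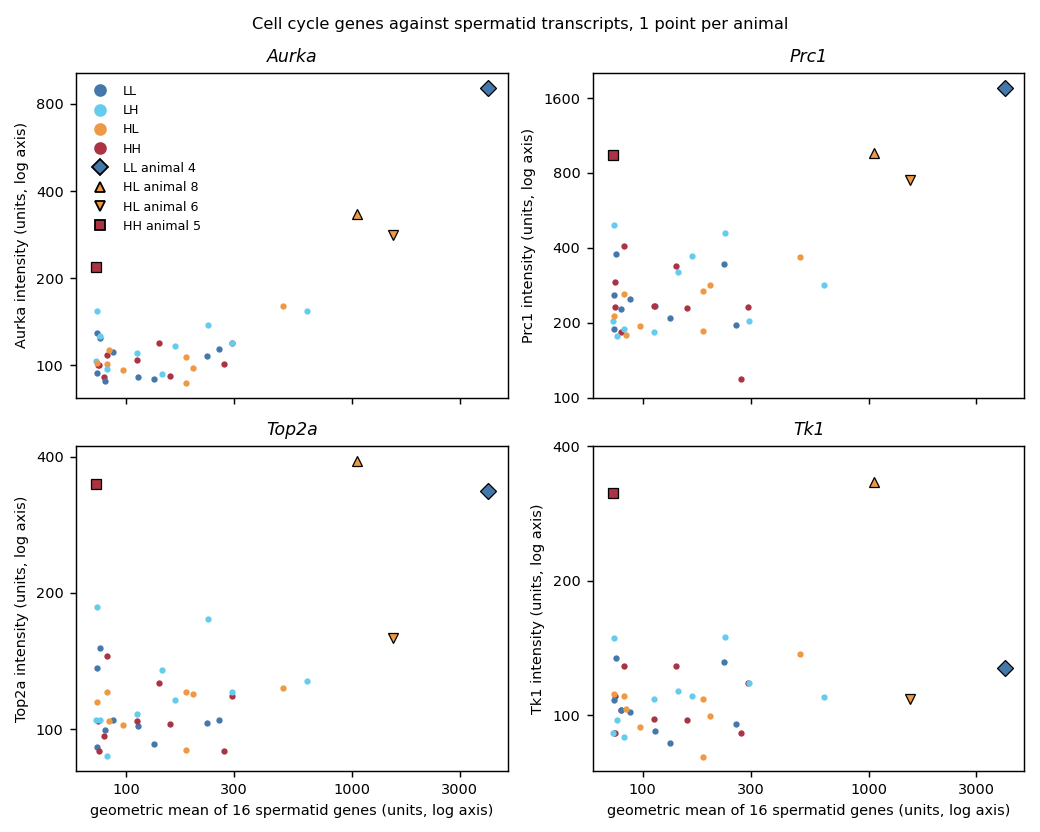
Intensity of Aurka, Prc1, Top2a and Tk1 (units, log axes) against the geometric mean of 16 spermatid genes in each of 40 animals. Aurka and Prc1 are high in the 3 arrays rich in spermatid transcripts and also in HH animal 5 (219 and 949 units). Tk1 is well above the rest in HL animal 8 and HH animal 5 (332 and 314). HH animal 5 lies at the left edge at 73.6 units of the spermatid list.

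Leaving out the 3 arrays rich in spermatid transcripts, of which HL animal 8 also carried intestinal transcripts, narrowed the spread over animals for several genes. The SD on the log2 scale went from 0.63 to 0.28 for Aurka and from 0.51 to 0.23 for Plk1. For Hmgb2 it went from 0.40 to 0.20, for Nusap1 from 0.45 to 0.29 and for Bub1b from 0.19 to 0.16. For Pcna it went from 0.84 to 0.86.

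Across the 37 other animals, with group means removed, many of the genes varied together. Of 253 pairs, 125 (49.4%) had r above 0.5, whereas 8.58% of all pairs of tested probes did, and 110 pairs passed for both r and Spearman's rho (permutation within groups, 100000 resamples, two-sided, adjusted over 253 pairs), 101 of them positive and 9 negative. Without the 2 animals farthest from the median of the first gene of a pair, 70 of the 125 pairs kept r above 0.5. The pairs share the same arrays, and HH animal 5 was among the 2 animals left out for 120 of the 125 pairs.

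The pairs among 9 genes of mitosis (cyclin-dependent kinase, mitotic kinases and checkpoint, anaphase ligase, kinesins and spindle) had a median r of 0.81, and of 0.64 without the 2 animals. Within mitosis the lowest r was 0.071, that of Bub1b with Prc1. Pairs among the 11 genes of replication and nucleotide supply had a median of 0.37 and 0.13. Between the 2 sets the median was 0.52 and 0.28, and the highest r was 0.95, for Tk1 with Cdk1. Top2a and Tk1 were among the closest pairs (r = 0.94, rho = 0.90, adjusted permutation p = 4.36e-05 and 7.23e-05, which come from the smallest p the resamples allow, r = 0.83 without 2 animals). Top2a also went with Cdk1 (r = 0.91, rho = 0.81, 0.75 without 2 animals) and Birc5, the survivin of the chromosomal passenger complex (r = 0.93, rho = 0.75, 0.80 without 2 animals), with the same adjusted permutation p-values.

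**Figure D4:**
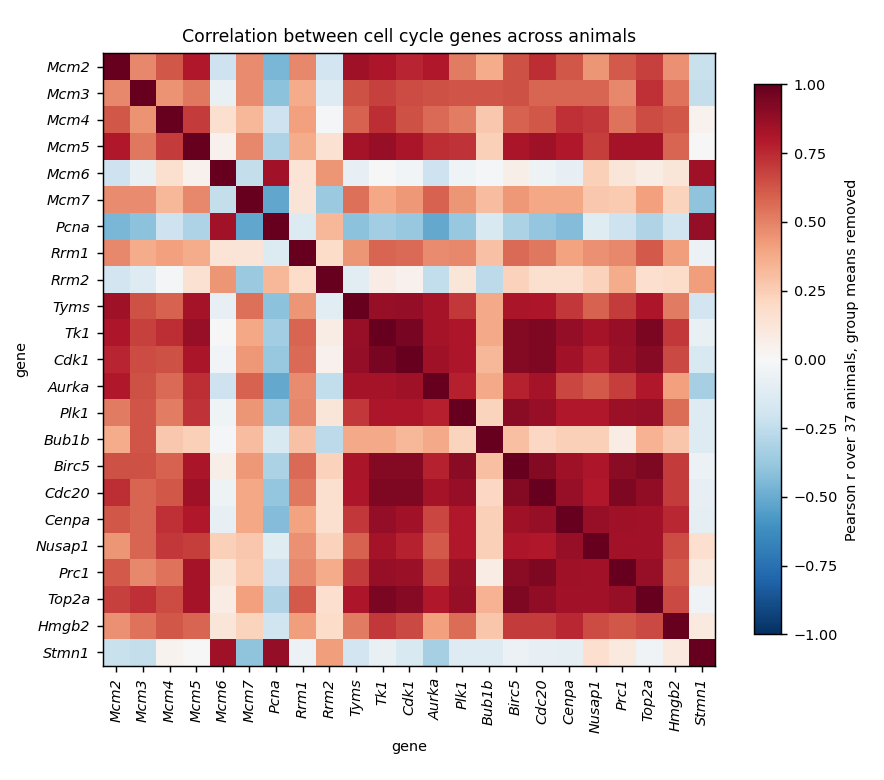
Pearson r between the 23 tested genes over 37 animals, with group means removed (red positive, blue negative), genes ordered by role. Most mitotic genes, with Top2a, Tk1 and Tyms, form a block of high r, and Pcna, Mcm6 and Stmn1 form a second block. Against Aurka, r was -0.51 for Pcna, -0.33 for Stmn1 and -0.21 for Mcm6. By adjusted permutation p under 0.05, r passed for Pcna only, and rho for all of them.

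Pcna, Stmn1 and the chosen probe of Mcm6 followed one another and not the mitotic genes. Pcna went with Stmn1 (r = 0.88, rho = 0.86, 0.86 without 2 animals) and with Mcm6 (r = 0.84, rho = 0.85, 0.81 without 2 animals), each with adjusted permutation p-values of 4.36e-05 for r and 7.23e-05 for rho. Against Aurka, Pcna was negative (r = -0.51, rho = -0.60, adjusted permutation p = 0.00359 and 0.00108, r = -0.55 without 2 animals). These are the 3 genes with the smallest p in HH against LH, where none passed the test.

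The same 3 genes followed the first principal component of the whole array, computed over the 35 arrays that were not of low correlation, oriented by Pcna and holding 28.9% of their variance. Over the 37 animals with group means removed, r with the score was 0.96 for Pcna, 0.84 for Stmn1 and 0.82 for Mcm6 (rho 0.93, 0.80 and 0.82, adjusted permutation p = 7.67e-05 each over 23 genes), and 0.95, 0.82 and 0.79 without 2 animals. For Aurka it was -0.61 (rho -0.70, adjusted permutation p = 0.000345 and 0.000172). Of all tested probes, 32.1% had an r beyond 0.5 in either direction, so the pattern belongs to a large part of the array.

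The median score was 0.28 for LL, -1.07 for LH, -0.46 for HL and 0.29 for HH animals, with overlapping ranges. With the score as a covariate, the HH minus LH difference of Mcm6 was 0.18 ± 0.12 (p = 0.131), that of Stmn1 0.21 ± 0.14 (p = 0.144) and that of Pcna -0.10 ± 0.11 (p = 0.386). What the component stands for was not tested.

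**Figure D5:**
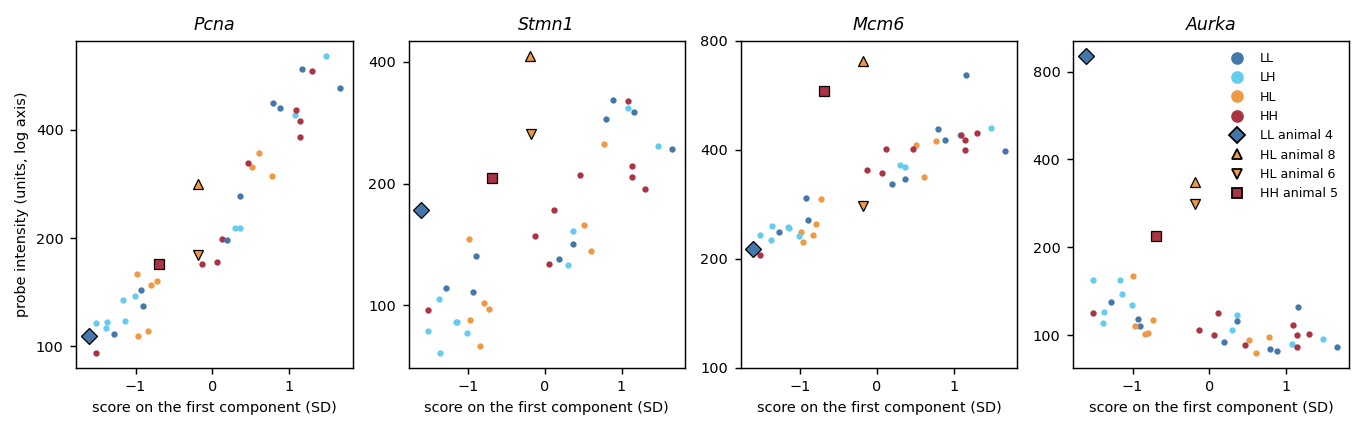
Intensity of Pcna, Stmn1, Mcm6 and Aurka (units, log axes) against the score of each of 40 animals on the first principal component (in SD). Pcna, Stmn1 and Mcm6 rise with the score, as with r = 0.96 for Pcna, and Aurka is lower at high scores (r = -0.61 over the 37 animals not rich in spermatid transcripts).

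Several genes had more than 1 probe, 9 in all, and the probes did not always move together. The other probes of Birc5 followed the chosen one with r = 0.96 and 0.98, and those of Cdc20 with 0.95, 0.72 and 0.95. For Tyms, thymidylate synthase, the 4 other probes ran from -0.15 to 0.58, and for Tk1 the 1 other probe that was above background on most arrays (25 of 40) had r = 0.21. For Mcm6, the other probes above background on all 40 arrays had r = 0.36 and 0.31. For Tyms, Tk1 and Mcm6 the values above, correlations included, hold for the chosen probe only.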

How the data were processed

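Gonadal fat RNA of 40 male mice was hybridized to MouseRef-8 v2.0 beadchips, 1 array each. The deposited values are linear probe intensity that the authors had quantile-normalized over the arrays, without background subtraction (47.5 to 43659 units), which understates folds of dim probes. The submitters' processing notes name BeadStudio. Log2 values were used as they stood. The number of arrays limits the precision.

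Groups came from the maternal and post-weaning diet in the labels. Of 25697 probes, 14248 were above background, the 95th percentile of 1305 olfactory and vomeronasal receptor probes on that array (78.06 to 94.28 units), on at least 20 arrays. Arrays were rich in spermatid transcripts when their list mean lay over 3 scaled median absolute deviations above the median. Each pair of groups was fitted on 20 arrays and the interaction on 40 with limma 3.58.1 (intensity trend, R 4.3.3), Benjamini-Hochberg adjusted over all probes. Animals of the same cage were treated as independent, so p-values may be too small where cages differ. Python 3.11.15 with numpy 2.4.6 and scipy 1.17.1 was used for correlations. The procedure was tested on simulated data.

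The genes and lists were chosen with earlier results of these data known. All 35 genes are accounted for, with full values for the 3 smallest p in each comparison, for the 3 brightest and 3 dimmest probes and for animals that stood apart. Alternatives covered arrays and cages left out, cages as effects, scaling, background, filters, variance models and probe choice.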

Additional observations from a re-analysis of the deposited data

Results flagged for a closer look

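In 23 genes and 4 groups of 10 animals, an animal was marked where its gap to the nearest animal took a share of the group's log2 range above Dixon's 95% critical value for 10 samples. Chance marks about 1 in 20 groups, and the marks are not independent, since genes share arrays. Of 92 combinations of gene and group 35 had a marked highest animal and 1 a marked lowest one, beside 7.49% and 4.03% of the combinations of all tested probes.

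Of the 35 high values, 33 belonged to 3 animals. LL animal 4 was marked for 11 genes: Rrm1 (329 units, next 237.8), Cdk1 (344.1 units, next 163.1), Aurka (907.1 units, next 129.8), Plk1 (608.8 units, next 147), Bub1b (129.4 units, next 100.2), Birc5 (480.4 units, next 149.7), Cdc20 (1045.6 units, next 206.7), Nusap1 (557.7 units, next 244.9), Prc1 (1760.8 units, next 377.5), Top2a (335.8 units, next 151.1) and Hmgb2 (454.5 units, next 297.2). Of all tested probes, 6.8% had a marked high value in LL animal 4, 3.77% in HL animal 8 and 3.56% in HH animal 5. HL animal 8 was marked for 9 genes: Mcm5 (617.7 units, next 279.8), Tyms (559.4 units, next 353.1), Tk1 (332.3 units, next 136.8), Cdk1 (394.6 units, next 175.2), Bub1b (140.2 units, next 103.9), Birc5 (488.7 units, next 177.6), Cenpa (1293.2 units, next 678.3), Top2a (391.5 units, next 158.8) and Hmgb2 (1012.1 units, next 325.4). HH animal 5 was marked for 13 genes: Mcm2 (182.1 units, next 121), Mcm3 (154.7 units, next 111.7), Mcm4 (1169 units, next 762.8), Mcm5 (426.3 units, next 224.4), Rrm1 (406.6 units, next 257.3), Tyms (547.4 units, next 307.6), Tk1 (314.1 units, next 129.1), Cdk1 (436.6 units, next 179.1), Aurka (219.2 units, next 119.4), Birc5 (398.4 units, next 152.6), Cdc20 (440.5 units, next 167.6), Top2a (348.6 units, next 145.3) and Hmgb2 (433.9 units, next 268).

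The other 2 high values were Mcm4 in LH animal 7 (862.6 units, next 725.7) and Bub1b in LH animal 6 (125 units, next 100). The low value was Mcm6 in HH animal 10 (204.2 units, next 345.4). This animal had the highest skeletal muscle list of the 40 (12610 units, 7 of 7 genes above background, HH median 142). It also had the lowest score on the first component in HH (-1.52). The part of either in the value was not tested.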

How the results depend on the processing

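No paired analysis was possible because the labels carry no replicate numbers that pair single animals. Animals of the same cage were compared within cages with offspring on either diet (cage as a fixed effect). They need not be littermates, since a breeding cage held 2 females and the labels do not name the dam. In LH minus LL, from cages 4 and 11 only, 0 of 23 genes passed (median -0.122, 5 animals against 5, LL animal 4 among them). In HH minus HL, from cages 10, 20 and 23 only, 0 passed (median -0.244, 7 against 6, HL animals 6 and 8 and HH animal 5 among them). Over 29 other settings, 548 of 556 counts of genes and values of single genes kept their direction and their side of the threshold, as did 480 of 480 with 1 of 40 animals left out. The medians turned sign in 23 of 142 and 6 of 120 cases. Some of the 29 settings left out only arrays of groups outside a comparison, and its values there repeat the main fit. The counts of 556 and 142 include such repeats, so they overstate how far the results were put to the test. The count of genes that passed stayed at 0 except in the interaction under array weights, where it was 3 (log2 differences 0.87 for Mcm6, 1.44 for Pcna and 1.47 for Stmn1). In that setting 1905 of all 14248 probes passed. With the first component as a covariate, a setting chosen after seeing the data like the leaving out of single animals, Pcna turned to -0.0989 in HH minus LH, -0.0701 in HH minus HL and -0.0239 in the interaction. Without the 21 arrays on which much of the spermatid list was above background, which leaves 4 HL and 5 LL animals, Rrm1 turned to -0.00688 in HL minus LL. The cause was not tested.

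The median of the genes was small in every comparison and single animals turned its sign: with 1 animal left out it ran from -0.0644 to 0.091 (HL minus LL), -0.0844 to 0.0585 (HH minus LH), -0.135 to 0.0402 (LH minus LL), -0.184 to 0.0149 (HH minus HL) and -0.13 to 0.0894 (interaction). The animals were HL animal 8 in the first, the fourth and the last of these, HH animal 5 or LH animal 10 in HH minus LH, and LL animal 4 in LH minus LL. A further limit is signal over background, since several probes lay within a few units of it.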
